A study of Mus musculus with 6 samples.

Results

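mmu-miR-143 and mmu-miR-145a (miR-143 and miR-145a from here on) are mouse microRNAs (miRNAs) cut from neighbouring hairpins of 1 primary transcript. They were followed here in Neuro2A (N2A), a cell line that originates from a neuroblastoma of the mouse. Entries of the deposited tables named as mouse miRNAs were stripped of variant suffix, arm and copy number and kept where the base name was miR-143 or miR-145a. Of 1080 entries listed, 4 met this rule, 2 for each hairpin, and each hairpin was represented by both of its arms. The rule used names and not levels, but the members were chosen with earlier results of these data known.

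Small RNA was sequenced from 3 libraries of cells given an siRNA against circCpsf6 (si-circCpsf6), a circular RNA, and from 3 libraries of cells given a control siRNA (si-NC). Each siRNA was delivered with a lipid reagent at 100 nM, and every library came from the same line. The labels put the cells down as neuroblasts of a brain neuroblastoma and give no time after transfection. The comparison asks how the miRNA profile differs when circCpsf6 is silenced. How far circCpsf6 was silenced was not analysed here.

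miR-143 and miR-145a are best known from vascular and visceral smooth muscle, where serum response factor and myocardin drive their transcript and where they favour the contractile over the proliferative state. They are also abundant in fibroblasts and pericytes. miR-143 is known to repress Elk1, and miR-145 to repress Klf4 and Klf5, transcription factors that keep smooth muscle cells dedifferentiated. Of each hairpin, 1 arm normally becomes the guide strand loaded into Argonaute and the other arm is mostly degraded.

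In the GENCODE M21 annotation of GRCm38, the Mir145a hairpin (ENSMUSG00000065592.2) spans 61647825 to 61647894 and the Mir143 hairpin (ENSMUSG00000065445.3) spans 61649196 to 61649258, both on the minus strand of chromosome 18. They are 1301 bases apart, and no other GENCODE exon or gene overlaps either of them. In that annotation the long noncoding RNA gene Carmn, on the same strand, ends 366 bases before Mir143. The RefSeq record of Carmn on GRCm38.p6 is longer (61645878 to 61665538) and holds both hairpins. The submitters' processing notes name mm9 as the build, so these positions serve only to describe the hairpins.

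The values were the authors' normalized read numbers, rounded to whole numbers, which are levels per library and not raw counts. Read depth is therefore unknown, and no counting intervals are given. No calibration against known amounts was used here, so ratios between entries are ratios of reads, not of molecules. Library sums of these values ran from 2874209 to 3268351 in si-circCpsf6 and from 2570449 to 3045133 in si-NC. The number of entries at 1 or above was between 747 and 880 in the si-circCpsf6 libraries and between 578 and 866 in the si-NC libraries. The lowest number, 578, was that of si-NC replicate 3, which stood apart from the other 5 libraries and also had the lowest sum. The labels do not say whether replicates are separate cultures. A p-value here therefore speaks only of variation among the 6 libraries, and that variation may be technical.

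miR-143-3p, the guide arm of miR-143, had one of the highest normalized read numbers in these libraries, with the 6th highest mean of 1048 entries. Its normalized read number was 77180, 64854 and 89458 in si-circCpsf6 replicates 1, 2 and 3, against 89316, 62471 and 57213 in si-NC replicates 1, 2 and 3. The highest library of each group stood at almost the same level, and the groups overlapped. The mean was 77164 ± 12302 in si-circCpsf6 and 69667 ± 17219 in si-NC (SD, n = 3 libraries each, and likewise below unless stated). It held 2.59 ± 0.57% of the summed values in si-circCpsf6 and 2.43 ± 0.44% in si-NC. Its rank within a library lay between 3rd and 10th. In bulk libraries such as these, a few cells rich in a miRNA and many cells with less of it cannot be told apart. The entry was named with the suffix R+1, read here as a form with 1 base more at its 3′ end than the reference.

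miR-145a-5p, the guide arm of miR-145a, ranked 59th by mean level. It was listed at 14022, 11763 and 11526 in si-circCpsf6 replicates 1, 2 and 3, against 12209, 10006 and 7067 in si-NC replicates 1, 2 and 3. The lowest library was si-NC replicate 3, and si-NC replicate 1 lay above 2 of the 3 si-circCpsf6 libraries, so the groups overlapped. The mean was 12437 ± 1378 in si-circCpsf6 and 9761 ± 2580 in si-NC, which is 0.416 ± 0.065% of the summed values in si-circCpsf6 and 0.339 ± 0.063% in si-NC. This entry carried no suffix.

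The passenger arms were far lower in normalized reads and close to each other. miR-143-5p was listed at 839, 664 and 973 in si-circCpsf6, against 692, 791 and 637 in si-NC, with means of 825 ± 155 in si-circCpsf6 and 707 ± 78.0 in si-NC. Its libraries were interleaved between the groups. miR-145a-3p was listed at 771, 740 and 1511 in si-circCpsf6, against 795, 600 and 772 in si-NC, with means of 1007 ± 436 in si-circCpsf6 and 722 ± 107 in si-NC. A single library, si-circCpsf6 replicate 3, stood well above the other 5, which lay between 600 and 795. This last entry was named with the suffix L+2R-2, read here as 2 bases more at the 5′ end and 2 fewer at the 3′ end. An entry outside the rule, named after macaque miR-145-5p with a substitution, was listed at 17, 14 and 6 in si-circCpsf6, against 13, 13 and 0 in si-NC.

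**Figure D1:**
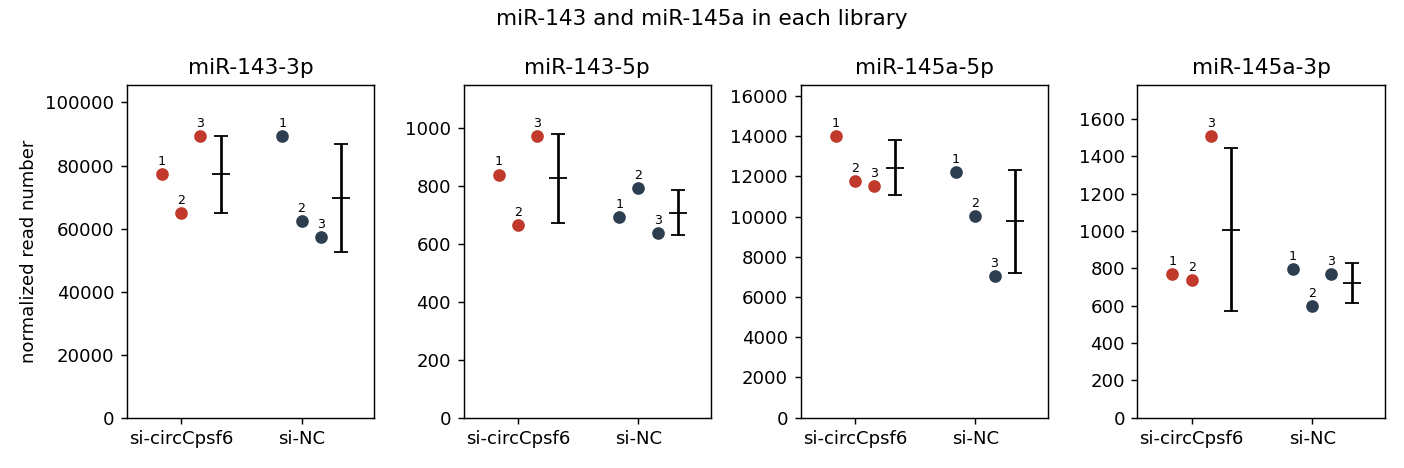
Normalized read number (vertical axes, from 0, a separate scale in each panel) of the 4 entries in each library, si-circCpsf6 in red and si-NC in dark blue, numbered by replicate, with the mean ± SD beside the points (n = 3 per group). The groups overlap in all 4 panels, and miR-145a-3p has 1 high library, si-circCpsf6 replicate 3 at 1511.

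The order of the normalized read numbers was the same in every library for the guide arms and not for the passenger arms. miR-143-3p was higher than miR-145a-5p in 6 of 6 libraries, between 5.50 and 8.10 times. miR-145a-5p was in turn higher than miR-145a-3p in 6 of 6 libraries, between 7.63 and 18.2 times. miR-145a-3p and miR-143-5p changed places between libraries, the first being higher in 4 of 6, and their means over all libraries (865 ± 324 and 766 ± 128, SD over 6 libraries) differed by less than that spread. Against its neighbours in the order of all entries, miR-143-3p (73415 ± 14000 over 6 libraries) could not be placed apart from miR-7b-5p (75946 ± 23208), a neuroendocrine miRNA, or from the broadly expressed miR-21a-5p (70479 ± 25910). miR-145a-5p (11099 ± 2360) likewise lay within the spread of miR-465b-3p (11314 ± 2660) and miR-378a-3p (11002.5 ± 3990).

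**Figure D2:**
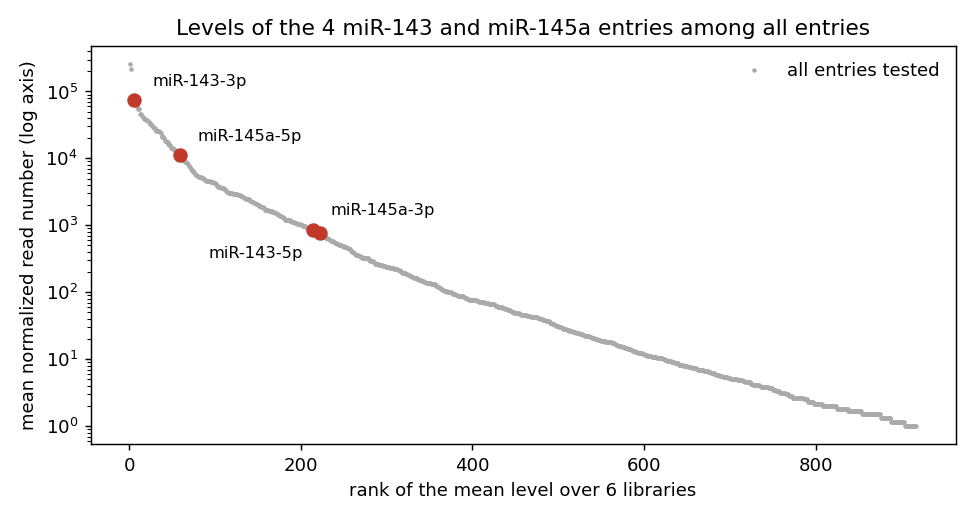
Mean normalized read number of each entry tested over 6 libraries (vertical log axis) against its rank (horizontal axis), with the 4 entries of miR-143 and miR-145a in red and all others in grey. miR-143-3p sits near the top of the curve, miR-145a-5p is 59th, and both passenger arms lie side by side at ranks 214 and 223.

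All 4 entries together held 3.23, 2.39 and 3.59% of the summed values in si-circCpsf6 replicates 1, 2 and 3, against 3.38, 2.52 and 2.56% in si-NC replicates 1, 2 and 3. The groups overlapped, at 3.07 ± 0.62% in si-circCpsf6 and 2.82 ± 0.49% in si-NC. The difference of 0.25 percentage points was -0.013 without si-circCpsf6 replicate 3 and 0.59 without si-circCpsf6 replicate 2. Most of the sum was miR-143, which made up 85.1 ± 1.95% of it in si-circCpsf6 and 87.0 ± 1.25% in si-NC.

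None of the 4 entries passed the test between the groups. limma on log2(value + 1) called 0 of 917 entries at an adjusted p under 0.05 (0%), and 57 had an unadjusted p under that value (6.22%), to which none of the 4 belonged. The log2 change of miR-145a-5p was 0.38 (SE 0.28, limma adjusted p = 0.832), and its 95% interval ran from -0.26 to 1.02. For miR-143-3p the log2 change was 0.16 (SE 0.29, limma adjusted p = 0.966), with an interval from -0.51 to 0.83. On a linear scale these intervals allow a ratio of si-circCpsf6 to si-NC between 0.836 and 2.02 for miR-145a-5p and between 0.704 and 1.78 for miR-143-3p. The test therefore does not show that the levels are alike.

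Passenger arms gave similar values. The log2 change was 0.21 for miR-143-5p (SE 0.29, limma adjusted p = 0.947, 95% interval -0.45 to 0.87) and 0.41 for miR-145a-3p (SE 0.36, limma adjusted p = 0.885, 95% interval -0.41 to 1.22). The value for miR-145a-3p was 0.076 without si-circCpsf6 replicate 3. In size, 59.1% of all entries had a larger log2 change than miR-145a-5p and 78.1% a larger one than miR-143-3p. These shares count every entry with a mean of 1 or more, and no comparison was made with entries of like level. The median log2 change over all 917 entries was 0.085. The groups overlapped for all 4 entries, while they did not overlap for 107 of the 917 (11.7%), 6.76% being higher and 4.91% lower in si-circCpsf6.

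Leaving out si-NC replicate 3 lowered the log2 change of both guide arms, to 0.16 for miR-145a-5p and 0.034 for miR-143-3p. Leaving out si-NC replicate 1 raised them, to 0.56 for miR-145a-5p and 0.36 for miR-143-3p. The median log2 change over all 917 entries moved the same way, from 0.085 to -0.046 without si-NC replicate 3. It was 0.18 without si-NC replicate 1, so these shifts are not particular to the guide arms. No setting brought any of the 4 entries past the threshold. miR-145a-5p was higher in si-circCpsf6 for 3 of 3 replicate numbers and each of the other 3 entries for 2 of 3, but the numbers did not meet the criterion for pairing the libraries.

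**Figure D3:**
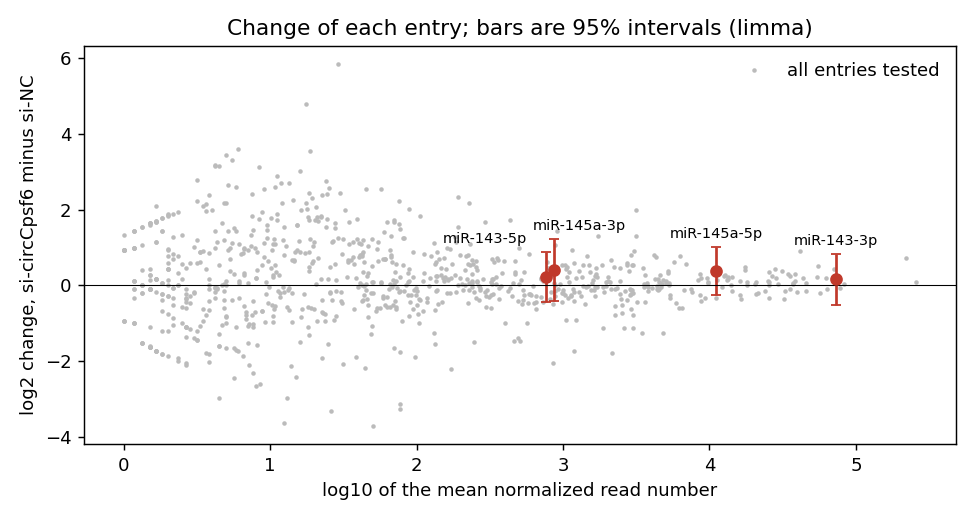
Log2 change, si-circCpsf6 minus si-NC (vertical axis, log2(value + 1) scale), against the log10 of the mean normalized read number (horizontal axis), for all 917 entries (grey) and the 4 entries of miR-143 and miR-145a (red, with the 95% interval from limma). Each of the 4 intervals crosses 0.

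The guide and passenger arms kept the same order in every library, on opposite sides of their hairpins. Normalized reads of miR-143-3p were 92.0, 97.7 and 91.9 times those of miR-143-5p in si-circCpsf6, against 129, 79.0 and 89.8 times in si-NC. The 5p arm was thus 1.08, 1.01 and 1.08% of miR-143 in si-circCpsf6, against 0.769, 1.25 and 1.10% in si-NC. The si-circCpsf6 libraries were close together and lay within the range of the si-NC libraries. For miR-145a the 5p arm was the higher one, at 18.2, 15.9 and 7.63 times the 3p arm in si-circCpsf6, against 15.4, 16.7 and 9.15 times in si-NC.

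The share of the miR-145a-3p passenger arm was highest in the replicate numbered 3 of each group. It was 11.6% of miR-145a in si-circCpsf6 replicate 3 and 9.85% in si-NC replicate 3. In the other libraries it was 5.21 and 5.92% in si-circCpsf6 replicates 1 and 2, against 6.11 and 5.66% in si-NC replicates 1 and 2. In si-circCpsf6 replicate 3 the 3p arm was high at 1511, and in si-NC replicate 3 the 5p arm was low at 7067. This was noticed after the values were seen, and it was not tested.

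Arm ratios were compared over the 217 mouse base names with both arms listed at a mean of 1 or more. Hairpin copies of 1 miRNA share a base name and counted once, so their arms may come from different copies. There, limma on the log2 ratio of the 3p to the 5p arm called 0 at an adjusted p under 0.05 (0%). At an unadjusted p under that value there were 6. For miR-143 the log2 ratio averaged 6.55 ± 0.050 in si-circCpsf6 and 6.60 ± 0.37 in si-NC, a difference of -0.049 (SE 0.40, limma adjusted p = 0.998). For miR-145a it averaged -3.70 ± 0.67 in si-circCpsf6 and -3.73 ± 0.47 in si-NC, a difference of 0.029 (SE 0.49, limma adjusted p = 0.998). The difference for miR-143 was 0.16 without si-NC replicate 1, and that for miR-145a was -0.36 without si-circCpsf6 replicate 3. As a description, 22.1% of these base names had a more one-sided ratio than miR-143, in either direction, and 50.2% a more one-sided one than miR-145a. Base names with an arm missing or below that mean are not counted in these shares. The level of the higher arm limits how one-sided a ratio can be, and no comparison was made with base names of like level.

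The ratio of the guide arms of the pair varied between libraries. Whether this spread exceeds measurement error around 1 fixed ratio was not tested. miR-145a-5p amounted to 18.2, 18.1 and 12.9% of miR-143-3p in si-circCpsf6 replicates 1, 2 and 3, against 13.7, 16.0 and 12.4% in si-NC replicates 1, 2 and 3. Both replicates numbered 3 had the lowest share of their group, and the groups overlapped. On the log2 scale the ratio was higher by 0.22 in si-circCpsf6, at -2.63 ± 0.29 in si-circCpsf6 and -2.84 ± 0.19 in si-NC, and was higher for 3 of 3 replicate numbers (exact permutation test, two-sided, p = 0.3, where 3 against 3 libraries cannot give less than 0.1). Scaling by 1 factor per library would leave this ratio as it is, but how the authors normalized the values is not stated in the labels or headers. The difference of 0.22 ran from 0.13 to 0.38 with 1 library left out.

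**Figure D4:**
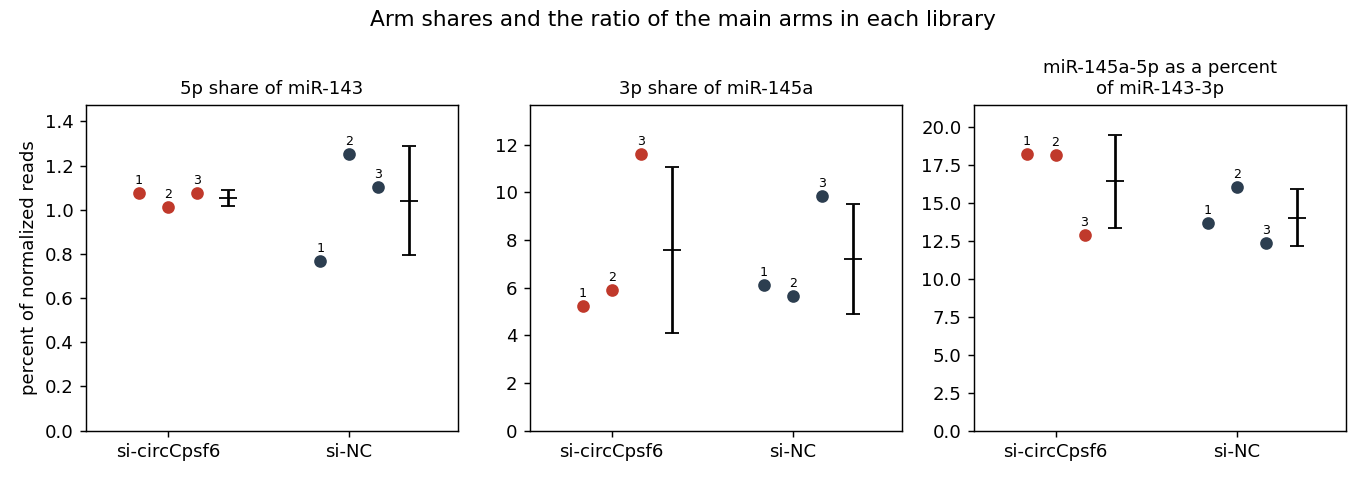
Share of the 5p arm in miR-143, share of the 3p arm in miR-145a, and miR-145a-5p as a percent of miR-143-3p (vertical axes, percent of normalized reads, from 0), in each library, numbered by replicate, with the mean ± SD beside the points (n = 3 per group). The groups overlap in each panel, and the 3p share of miR-145a is highest in the replicate numbered 3 of each group, at 11.6% in si-circCpsf6 and 9.85% in si-NC.

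The spread of the guide arms between libraries of 1 group was below the median of entries with a mean of at least 100. The SD within groups on the log2 scale was 0.29 for miR-143-3p, 0.30 for miR-145a-5p, 0.23 for miR-143-5p and 0.44 for miR-145a-3p. Over the 373 such entries the median was 0.49. Of these entries, 20.4% had a smaller SD than miR-143-3p and 22.0% a smaller one than miR-145a-5p. Most of them were lower in level than the guide arms, and no comparison was made with entries of like level.

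Across the 6 libraries, miR-143-3p and miR-145a-5p had a Pearson correlation of 0.70 on the log2 scale. The 342 other mouse-named entries with a mean of at least 100 had a median correlation of 0.012 with miR-143-3p and 0.045 with miR-145a-5p. With miR-143-3p, 19 of them had a higher correlation than its cluster partner, and with miR-145a-5p 58 did. Most like miR-143-3p were miR-100-5p (0.97), miR-127-3p (0.90), miR-136-3p (0.90), miR-466i-3p (0.87) and miR-27b-3p (0.87). For miR-145a-5p they were miR-324-3p (0.99), miR-379-5p (0.95), miR-541-5p (0.94), miR-674-3p (0.93) and miR-300-3p (0.92). miR-145a-5p and its own passenger arm had a correlation of 0.16, and miR-143-3p and its passenger arm one of 0.58. Each value is over 6 points that share library and scaling, and the 5 entries named for each guide arm were picked as the highest of 342. Over the 5 libraries without si-NC replicate 3, the correlation of both guide arms was 0.45. Over those 5 libraries, the correlations with miR-143-3p were 0.97 for miR-100-5p, 0.86 for miR-127-3p, 0.90 for miR-136-3p, 0.80 for miR-466i-3p and 0.80 for miR-27b-3p. Those with miR-145a-5p were 0.97 for miR-324-3p, 0.82 for miR-379-5p, 0.68 for miR-541-5p, 0.58 for miR-674-3p and 0.72 for miR-300-3p, all lower than over 6 libraries. Between a guide arm and its own passenger arm they were 0.39 for miR-143 and 0.15 for miR-145a. Those 5 libraries were among the 6 that picked the named entries, so their values are no independent check of that choice.

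Other miRNAs of smooth muscle, pericytes and fibroblasts were present at unequal levels. Of 14 tested miRNAs on that list, miR-143 and miR-145a included, 0 passed the limma test. The log2 change was above 0 for 9 and below 0 for 5, where 55.6% of all entries were above 0. Their median was 0.13, against 0.085 over all entries. Beside miR-143-3p, the most abundant were miR-21a-5p, a growth-associated miRNA, at 80799 ± 28643 in si-circCpsf6 and 60159 ± 23202 in si-NC, and miR-29a-3p, which represses collagen genes, at 64738 ± 6641 in si-circCpsf6 and 45288 ± 3121 in si-NC. miR-22-3p stood at 18447 ± 6664 in si-circCpsf6 and 17803 ± 4863 in si-NC. The groups did not overlap for 3 of the 14, all higher in si-circCpsf6 (miR-29a, miR-199b and miR-214), where 6.76% of all entries were of that kind. Among these, miR-214-3p, which comes from the Dnm3os transcript of mesenchymal cells, was listed at 1131, 1482 and 1216 in si-circCpsf6, against 651, 797 and 201 in si-NC. miR-10a, miR-10b, miR-221 and miR-222, which many mesenchymal cells express, were low: miR-221-3p, the highest of them by its mean over all libraries, averaged 11.0 ± 14.2 in si-circCpsf6 and 143 ± 175 in si-NC, where 1 library stood at 340.

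miRNAs of skeletal and heart muscle, of vessel lining and of blood were far below miR-143-3p. miR-1a-3p, which promotes striated muscle differentiation, averaged 49.0 ± 14.7 in si-circCpsf6 and 76.7 ± 36.6 in si-NC, and miR-133a-3p averaged 10.7 ± 4.51 in si-circCpsf6 and 12.7 ± 6.43 in si-NC. Of the 7 miRNAs on the striated muscle list, 3 were listed, and they summed to between 473 and 704 in si-circCpsf6 and between 493 and 666 in si-NC, most of which was miR-499-5p. Endothelial miR-126a-3p averaged 3597 ± 716 in si-circCpsf6 and 3505 ± 594 in si-NC, and miR-126b-3p was listed at 0 in all libraries but 1. Blood cell miRNAs, 3 of 6 listed, summed to between 13 and 32 in si-circCpsf6 and between 27 and 46 in si-NC. All 9 neuronal and neuroendocrine miRNAs were listed, and they summed to between 311803 and 501989 in si-circCpsf6 and between 199454 and 362566 in si-NC. By its mean, miR-7a-5p was the largest contribution to that sum, at 266929 in si-circCpsf6 and 169637 in si-NC. miR-7b-5p was next, at 78234 in si-circCpsf6 and 73657 in si-NC. The sum is thus mostly that of the miR-7 entries and does not stand for the other members of the list. Of the 9, 0 passed the limma test. The log2 change was above 0 for 6 and below 0 for 3 (miR-218, miR-128 and miR-9), where 55.6% of all entries were above 0. The groups did not overlap for 1 of the 9, miR-9-5p, listed at 147, 153 and 83 in si-circCpsf6, against 172, 180 and 154 in si-NC, where 4.91% of all entries were lower without overlap.

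**Figure D5:**
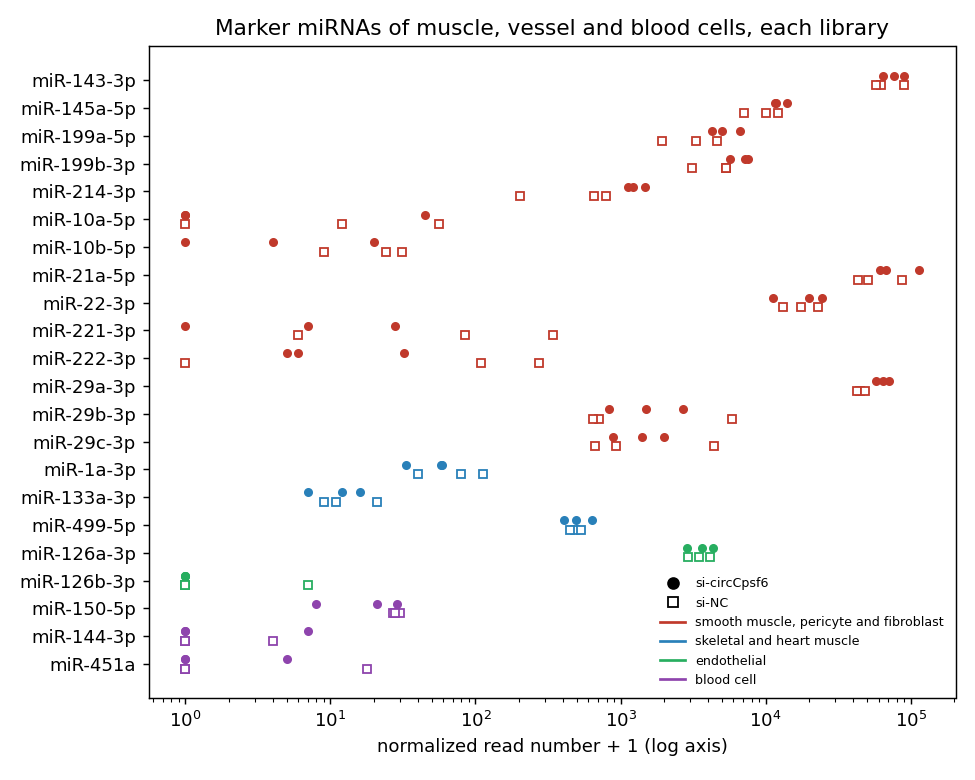
Normalized read number + 1 (horizontal log axis) in each library of miRNAs of smooth muscle, pericytes and fibroblasts (red), skeletal and heart muscle (blue), endothelium (green) and blood cells (purple), with si-circCpsf6 as filled circles above si-NC as open squares. miR-143-3p lies at the upper end with miR-21a-5p and miR-29a-3p, while miR-1a-3p, miR-133a-3p and the blood cell miRNAs reach at most 112.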

How the data were processed

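Small RNA libraries of N2A cells (3 si-circCpsf6, 3 si-NC, 100 nM siRNA) were made with the TruSeq small RNA kit, per the labels' protocols, and grouped by title. The submitters' processing notes name mm9. The sources used here do not state the aligner, the counting, the normalization or the filters. The authors deposited normalized read numbers per entry, rounded to whole numbers, and these were treated as a score, per the file headers and the values, since they are not raw counts.

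Rows repeating another row's values were merged where at least 3 libraries were above 0 or the names differed only in suffix, which left 1048 of 1080 entries, and none of the 4 miR-143 and miR-145a entries was merged. All 4 were among the 917 entries with a mean of 1 or more, which were tested by limma 3.58.1 (trended variance, R 4.3.3) on log2(value + 1), a scale that understates changes of low entries, with Benjamini-Hochberg adjustment at 0.05. Arm ratios used the most abundant entry of each arm under each base name, copy number dropped. Ratios were compared by two-sided exact permutation (scipy 1.17.1, Python 3.11.15). The limma step was tested on simulated data.

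All 4 entries are named. The 5 entries most like each guide arm were named by Pearson correlation, and up to 4 of each marker list by abundance. miR-214, miR-199b, miR-133a, miR-128 and miR-9 were named after their values were seen, and 6 ratios of the guide arms to other miRNAs, also chosen then, are not reported. Epithelial and liver lists summed to between 7 and 62 and to 0 in si-circCpsf6, against between 151 and 431 and at most 5 in si-NC. Members and lists were chosen with earlier results of these data known. Alternatives were other pseudocounts (0.1 and 5), filters, scalings, array weights, unmerged rows, the replicate number as a block, and each library left out.

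Same-numbered libraries of the 2 groups had correlations of their deviations from the group means of 0.048, 0.48 and 0.40. Not every one was over 0.1, so the numbers were not taken to pair the libraries. Each was still the highest correlation of its si-circCpsf6 library, so whether the numbers pair the libraries is undecided.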

Additional observations from a re-analysis of the deposited data

How the results depend on the processing

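Across 15 alternatives, miR-143-5p, miR-145a-3p and miR-145a-5p kept a log2 change above 0 in each, and no alternative brought any of the 4 entries past the threshold (lowest adjusted p 0.440, for miR-145a-5p with the replicate block). miR-143-3p had a log2 change of -0.014 with array weights per library, where si-NC replicate 3 had a weight of 0.146, and 0.083 with libraries rescaled to equal totals. The median log2 change over all entries was -0.019 with array weights and 0.019 with equal totals, against 0.085 in the main fit. With 1 library left out, the log2 change ran from 0.034 to 0.36 for miR-143-3p, from 0.085 to 0.36 for miR-143-5p, from 0.076 to 0.59 for miR-145a-3p and from 0.16 to 0.56 for miR-145a-5p. The arm ratio differences ran from -0.20 to 0.16 for miR-143 and from -0.36 to 0.30 for miR-145a, thus to either side of 0, and the cause was not tested. The difference between the groups (si-circCpsf6 minus si-NC) in the share of the summed values held by the 4 entries ran from -0.013 to 0.59 percentage points, and that in the log2 ratio of miR-145a-5p to miR-143-3p from 0.13 to 0.38. Over all entries, limma called 31 with array weights, 4 without si-NC replicate 3 (0 to 4 with 1 library left out) and 0 under every other alternative. With the replicate block 0 entries passed, 87 had an unadjusted p under 0.05, against 57 without the block, and the paired exact permutation p of the ratio of the guide arms was 0.25, the smallest that 3 pairs allow. si-NC replicate 1 deviated more like si-circCpsf6 replicate 2 (correlation 0.18) than like its own number (0.048). For each si-circCpsf6 library, however, the si-NC library of the same number had the highest correlation. Correlations between libraries of unlike number ran from -0.44 to 0.18. Read depth is unknown.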
